A study of Mus musculus with 3 samples.

Results

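The genes described here are 9 genes of mast cells and basophils, read on arrays of long-term hematopoietic stem cells (LT-HSCs). They are the granule proteases Mcpt1, Mcpt8, Cma1, Tpsb2, Tpsab1 and Cpa3, the IgE receptor chains Fcer1a and Ms4a2, and the granule proteoglycan Srgn. Members were chosen by name with earlier results of these arrays in view, in which the signal of Mcpt1 on the array labelled Atmp38dKO had already been seen, and the choice had no threshold. All 9 genes were on the array, with 12 probes, among 37325 genes and 56605 probes in all. Each probe is a 60-base oligonucleotide, and each of the 12 was printed once per array.

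LT-HSCs were sorted from bone marrow of C57BL/6J mice of 3 genotypes, and Cy3-labelled RNA of each genotype was hybridized to 1 Agilent array. AtmsKO mice carried CAG-CreERT2 and floxed Atm, the kinase of the DNA damage response, and Atmp38dKO mice also carried floxed p38α, the stress kinase encoded by Mapk14. CAG is a ubiquitous promoter, so Cre acted in cells other than HSCs too, after tamoxifen (TAM) at about 5 weeks of age. Per the methods, WT mice were TAM-treated floxed animals without Cre. The labels give an age of 11 weeks, while the series text places the analysis 4 weeks after TAM, and the labelled sort was for CD150+ CD48- Flt3- CD34- cells within the lineage-, Sca-1+, c-Kit+ (LSK) fraction. The methods add CD41-, the series text names CD34 and Flt3 only, both sexes were used, and how many mice were pooled for an array is not given.

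With 1 array per genotype there are no biological replicates. Differences therefore compare 3 arrays and not the genotypes, and no test or p-value was possible. At Mapk14 the array labelled Atmp38dKO was not below WT, so that no loss was seen at its 2 probes. They gave 295 and 469 on WT, 260 and 558 on AtmsKO and 345 and 616 on the array itself. At Atm one probe gave 88.8 on WT, 16.3 on AtmsKO and 49.0 on the array labelled Atmp38dKO, and the other 87.0, 23.9 and 86.5, so that Atm was low on AtmsKO and only partly so on the third array. Whether these probes lie in the deleted exons is not given in the sources used here. All 13 LT-HSC markers were well above background on every array. Of 7 markers that the sort should lack, 7 were also well above background on WT, 7 on AtmsKO and 6 on the third array. Among them Itgam, the Mac-1 chain, gave 33134 on WT, 32383 on AtmsKO and 33895 on the third array. Cd34 gave 1694, 1666 and 2185. Sort purity and the specificity of these probes were not tested. Over all probes, 73.3%, 68.9% and 77.7% were well above background on these arrays.

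Mast cells and basophils store proteases in granules, where serglycin, the product of Srgn, holds them through its glycosaminoglycan chains. Both cell types carry the high-affinity IgE receptor, in which FCER1A binds IgE and MS4A2 and FCER1G carry the signal inward. In bone marrow they arise from myeloid progenitors in which GATA2 is a central regulator, and Gata2 is also expressed by HSCs themselves. Mouse chymases and related proteases lie together on chromosome 14, tryptases on chromosome 17.

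The sequences on which the signals rest are shown as the first 30 of the 60 bases of each oligonucleotide, 5′ to 3′ as deposited, for the members whose signal on the array labelled Atmp38dKO differed most from the other arrays and for a chymase that did not.
Mcpt1: aatctctgcatatgtgccctggattaaaac
Mcpt8: gctttatgccttggattcggaaaacaatga
Cpa3: gccaagtatatcctcaagaatacttcctaa
Fcer1a: attggctgctccttcagacatctgctgaca
Cma1: ataagatcttgagggagaattaactctgga
Per the files, on mm9, the Mcpt1 probe lies at chr14:56638928-56638987 on the plus strand, starting at base 727 of its transcript. The Mcpt8 probe lies at chr14:56701075-56701134 on the minus strand, the Cpa3 probe at chr3:20115674-20115733 on the minus strand, the Fcer1a probe at chr1:175152865-175152924 on the minus strand and the Cma1 probe at chr14:56560454-56560513 on the minus strand. Each covers 60 genomic bases, and so no intron, and whether a probe lies in coding sequence or in a UTR is not given by the files. Among the named proteases of the chymase and tryptase loci, the probe most like that of Mcpt1 was Cma2's, with 25 matching bases in the best ungapped alignment. The most like that of Mcpt8 was Ctsg's, with 27. Over all probes of other genes, the longest run shared with the Mcpt1 probe was 15 bases, in a probe of Zfp438.

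Signals are given in scanner units as background-subtracted by the scanner software, in the order WT, AtmsKO, Atmp38dKO, and with the error that the software assigns to a spot. A probe is called well above background where the software flags it so. For differences, each log2 signal was taken relative to its array's 75th percentile (102, 96.2 and 118), a signal not well above background was raised to the lowest one that was, and the result is then a bound ("at least"). A gene was counted as changed if it differed at least 2-fold and was well above background on the brighter array. Signals of different probes are not compared as levels of their genes. Well above background were 5 of the 9 members for WT, 5 for AtmsKO and 6 for the array labelled Atmp38dKO. Over all probes the shares were 73.3%, 68.9% and 77.7%, in the same order. RNA was taken from sorted cells in bulk, so that fewer cells of a type and less RNA per cell cannot be told apart.

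**Figure D1:**
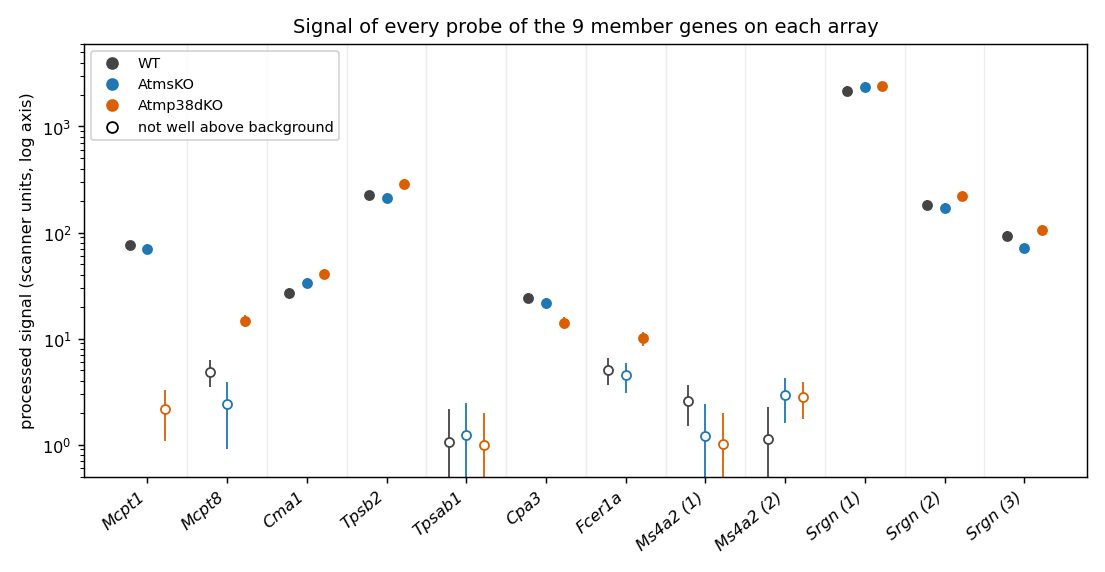
Processed signal of the 12 probes on each array, on a log axis; bars are the scanner software's error of 1 spot and are cut off at the axis, and open circles are not well above background. Mcpt1 is at 75.9 and 70.6 on the WT and AtmsKO arrays and at 2.19 on the array labelled Atmp38dKO, while Mcpt8 and Fcer1a are filled only there.

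Mcpt1 encodes a chymase of mucosal mast cells. It gave 75.9 ± 8.09 for WT, 70.6 ± 7.19 for AtmsKO and 2.19 ± 1.10 for the array labelled Atmp38dKO, where it was not well above background. WT and AtmsKO were within the software error of each other (log2 difference -0.03 ± 0.21), and the third array stood apart. By the bounds, the array labelled Atmp38dKO was at least 17.7-fold below WT and at least 17.4-fold below AtmsKO. With another background correction (normexp, which adds a constant to every signal) the log2 differences were -1.33 and -1.32. Because Mcpt1 was known to be low there when the members were chosen, these values are a description and support nothing further.

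The same spots before background subtraction had mean pixel signals of 105.6, 100.4 and 28.1, against a subtracted background of 26.8, 27.0 and 25.8. The 308 negative control spots of each array had medians of 22.2, 21.9 and 21.7 and 99th percentiles of 43.3, 33.5 and 31.5. Mcpt1 was thus above the 99th percentile of the controls on WT and AtmsKO and below it on the array labelled Atmp38dKO. No outlier flag was set at the spot on any array. On the WT array the pixels of the spot were uneven, with an SD of 55.1 over 43 pixels and a median of 83, against an SD of 26.2 around a median of 95.5 on AtmsKO and of 7.79 around 27.5 on the array labelled Atmp38dKO. Around the spot (3 rows and columns each way), 38 neighbouring spots were well above background on the arrays compared, and their median log2 difference was -0.01 from WT and -0.03 from AtmsKO. Of these 38, 5 were at least 2-fold lower than on WT and 1 higher, and 0 were lower than on AtmsKO and 2 higher. Over all genes well above background on both arrays compared, 915 of 27251 were lower than on WT and 808 higher. Against AtmsKO, 750 of 26154 were lower and 716 higher. With 1 spot of 1 probe per array, Mcpt1 has no second reading.

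**Figure D2:**
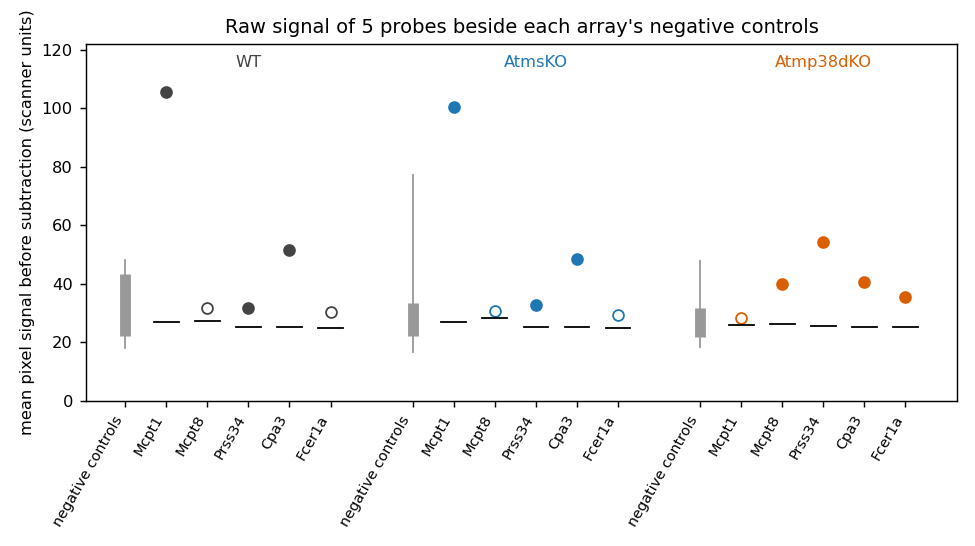
Mean pixel signal before background subtraction for 5 probes on each array, in scanner units; black dashes are the background the software subtracted, grey bars run from the median to the 99th percentile of 308 negative control spots and thin grey lines from their lowest to their highest, and open circles are not well above background. Mcpt1 is at 105.6, 100.4 and 28.1, and Prss34 and Mcpt8 are higher on the array labelled Atmp38dKO.

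Mcpt8, the protease used as a marker of mouse basophils, had signals of 4.88 ± 1.39, 2.41 ± 1.50 and 14.7 ± 1.91. It was well above background only on the array labelled Atmp38dKO, which was the highest of the 3. The difference was at least 2.38-fold from WT (log2 1.25) and at least 1.97-fold from AtmsKO (log2 0.98), the first past the 2-fold limit and the second just under it. With normexp the difference from WT was 0.04 on the log2 scale and no longer counted, and that from AtmsKO was -0.01. Around the Mcpt8 spot, 36 measured neighbours had a median log2 difference of 0.03 from WT.

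Prss34, which encodes the basophil-rich tryptase mMCP-11 and is no member, was read on the same arrays at 6.79 ± 1.45, 8.01 ± 1.69 and 30.5 ± 3.28. It was well above background on all 3, and highest on the array labelled Atmp38dKO. The log2 difference was 1.95 ± 0.34 from WT, or 3.87-fold, and 1.64 ± 0.34 from AtmsKO, or 3.11-fold. The WT value lay below the 99th percentile of that array's negative controls after subtraction, which was 16.1 (5.83 and 4.28 on the other arrays).

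Cpa3 encodes carboxypeptidase A3, a granule exopeptidase of mast cells, basophils and their progenitors. Its signal was 24.2 ± 2.66, 21.6 ± 2.51 and 14.2 ± 1.75, well above background throughout and lowest on the array labelled Atmp38dKO. The log2 difference was -0.99 ± 0.24 from WT, a 1.98-fold decrease that missed the 2-fold limit, and -0.90 from AtmsKO. Between AtmsKO and WT it was -0.09. Quantile normalized, the difference from WT was -1.03 and passed the limit, as it did when arrays were centred on their medians, and with normexp it was -0.31. At signals of 10 to 40, probes printed at least 5 times had a median SD between spots of 0.26, 0.27 and 0.20 on the log2 scale.

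Fcer1a, the IgE-binding chain, had signals of 5.09 ± 1.46, 4.49 and 10.1 ± 1.49, and was well above background only on the array labelled Atmp38dKO. The bounds were 1.63-fold and 1.34-fold, under the 2-fold limit, and with normexp the log2 differences turned to -0.02 and -0.04. Ms4a2, the β chain of the receptor, was not well above background at either probe on any array, with signals of 1.13, 2.92 and 2.81 at one and 2.58, 1.21 and 1.02 at the other. No difference can be given for it. Fcer1g, the γ chain that other Fc receptors share, was read at 291, 175 and 260 and was named after its values were seen.

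Cma1, Tpsb2 and Srgn stayed within 2-fold on all arrays. Cma1, a chymase of connective tissue mast cells also known as mMCP-5, had signals of 27.2 ± 3.06, 33.4 and 41.0, with the lowest on WT. Its log2 differences from WT were 0.38 ± 0.23 on AtmsKO and 0.38 ± 0.22 on the array labelled Atmp38dKO, and these 2 arrays were level after scaling (0.00).

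Tpsb2, the tryptase mMCP-6, was read at 224, 214 and 290, and its log2 differences of 0.01, 0.16 and 0.15 were within the software error of 0.20. Tpsab1, the tryptase mMCP-7, which C57BL/6 mice are known to lack as a protein, was not well above background on any array, with signals of 1.07, 1.24 and 1.00.

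Srgn is expressed by many hematopoietic cells as well as by mast cells, and had 3 probes. The brightest gave 2169, 2370 and 2408, the second 183, 172 and 221 and the third 93.4, 71.2 and 106. The second probe covers a junction, with 5313 bases of genome between its ends on mm9. Relative to WT, the AtmsKO array differed by 0.20, -0.01 and -0.31 on the log2 scale at these probes and the array labelled Atmp38dKO by -0.06, 0.06 and -0.03. The probes thus gave different signs for AtmsKO against WT, and no difference reached 2-fold.

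Ordered by the range of their scaled values over the 3 arrays, with dim values raised as above, the members were Mcpt1 (log2 4.15), Mcpt8 (1.25), Cpa3 (0.99), Fcer1a (0.70), Cma1 (0.38), Srgn (0.27) and Tpsb2 (0.16). In the first 4 the array labelled Atmp38dKO was the one apart, lowest of the 3 at Mcpt1 and Cpa3 and highest at Mcpt8 and Fcer1a (not so for these 2 with normexp, as given above). The range of Tpsb2 was within the software error of its difference (0.20), and that of Srgn was beyond it (0.27 against 0.20).

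**Figure D3:**
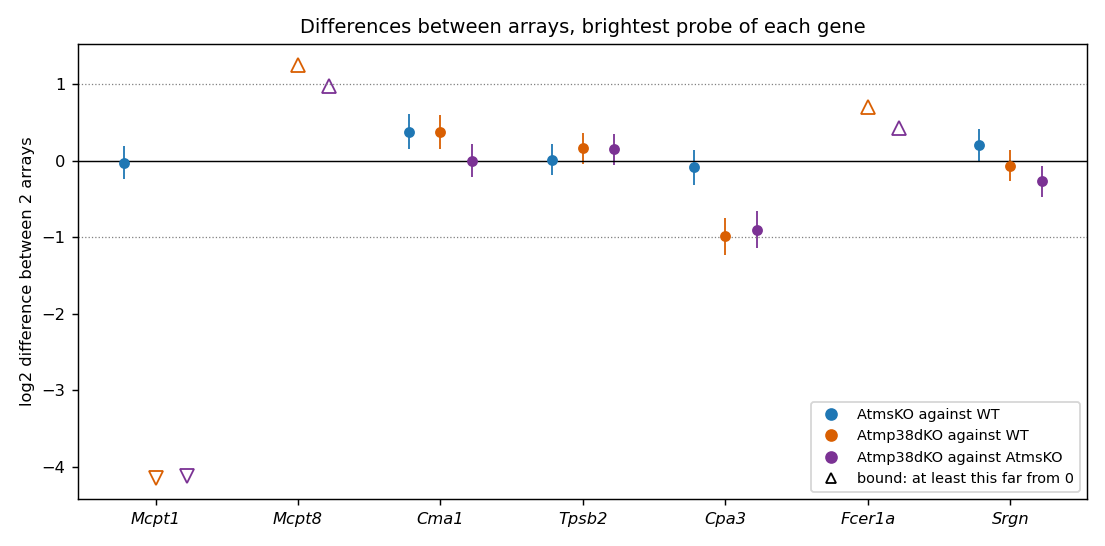
Log2 difference between arrays for the brightest probe of the 7 members that were well above background on at least 1 array; bars are the software error, open triangles are bounds and dotted lines mark 2-fold. Mcpt1 lies at -4.15 and -4.12 against WT and AtmsKO, Mcpt8 at 1.25 and 0.98 and Cpa3 at -0.99 and -0.90, while Cma1, Tpsb2 and Srgn stay inside the dotted lines.

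Counted over the members, 0 of the 5 that rose well above background on 1 or both arrays were 2-fold lower or higher on AtmsKO than on WT. Over all genes 3.98% were lower and 3.81% higher in that comparison. On the array labelled Atmp38dKO, 1 of 7 was lower than on WT (Mcpt1; 4.41% of all genes) and 1 of 7 higher (Mcpt8; 3.95%). Against AtmsKO, 1 of 7 was lower (Mcpt1; 3.62%) and 0 of 7 higher (3.7%). At 8-fold the bound of Mcpt1 passed in both, as did 0.284% of all genes against WT and 0.308% against AtmsKO, and no other member did. With values so few and one of them known when the list was made, nothing is read from these counts about the members as a group. The median log2 difference of the members was 0.01, 0.16 and 0.00 in the 3 comparisons, against 0.01, 0.02 and -0.005 over all genes. Both comparisons with WT use the same WT array, and both comparisons of the array labelled Atmp38dKO use that array.

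Mcpt1 and Mcpt8 both lie in the chymase locus, with their probes 62.1 kb apart and those of Mcpt9, Mcpt2 and Mcpt4 between them. In a window chosen after the values were seen, chr14:56560454-56877975 on mm9, 18 probes stood for 18 genes over 317 kb. On the array labelled Atmp38dKO, 1 of 12 genes considered was 2-fold lower than on WT (Mcpt1; 4.41% of all genes). Another 1 of 12 was higher (Mcpt8; 3.95%). Mcpt9, a mast cell protease whose probe lies 9.20 kb from that of Mcpt1, was read at 9.35, 20.7 and 13.7. It was higher on AtmsKO than on WT by 1.22 ± 0.31 on the log2 scale. Its WT value lay below 16.1, the 99th percentile of that array's negative controls after subtraction. Cma2, on the other side of Mcpt1, was read at 113, 135 and 164, within 0.34 on the log2 scale of each other. Ctsg, which encodes cathepsin G of neutrophils and mast cells, lay beyond Mcpt8, 79.9 kb from the Mcpt1 probe, and was read at 52.8, 49.8 and 90.4, a log2 difference of 0.56 ± 0.21 from WT on the array labelled Atmp38dKO. Mcpt4 was read at 9.28, 4.64 and 6.32, the second not well above background, and Mcpt2 at 6.11, 1.45 and 4.33, none of them well above background. The low signal of Mcpt1 was thus not shared by the probes on its sides, Cma2 and Mcpt9.

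**Figure D4:**
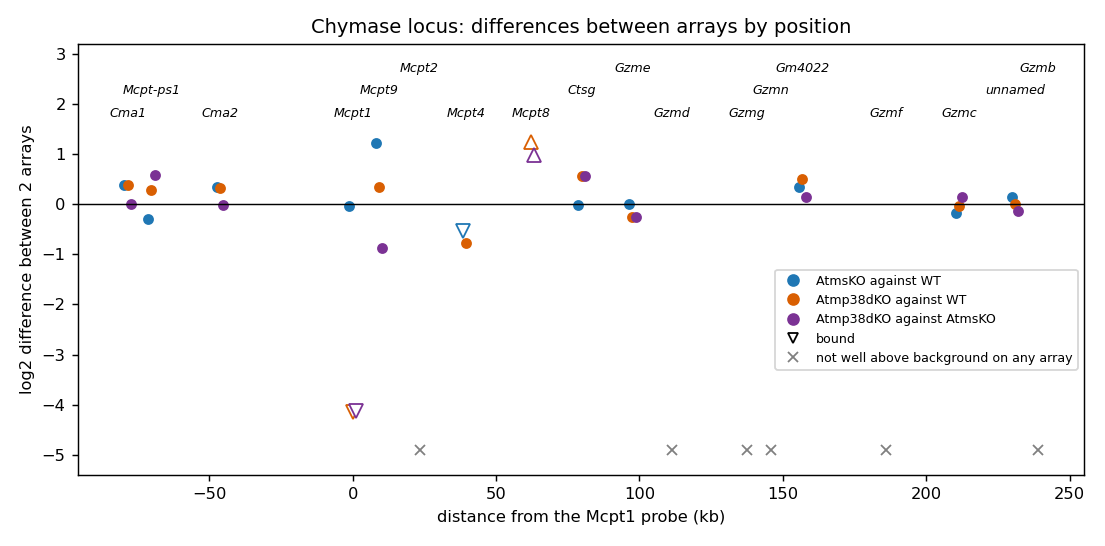
Log2 difference between arrays (y) by distance from the Mcpt1 probe in kb (x) for the 18 genes of the chymase locus; open triangles are bounds, points are drawn slightly apart, and crosses mark genes not well above background on any array, placed at an arbitrary height. Mcpt1 lies at -4.15 and -4.12, Mcpt8 at 1.25 and 0.98, and Cma2 and Mcpt9 beside Mcpt1 are at 0.33 and 0.34 against WT on the array labelled Atmp38dKO.

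The promoters of Mcpt1, Mcpt8 and Cpa3 are shown because these members differed most between arrays. Each is given as the 250 bases before the start, 5′ to 3′ on the gene's strand, from RefSeq on GRCm38.p6, with capitals for the letters known to be bound by GATA factors, GATA preceded by A or T and followed by A or G, sought on both strands.
Mcpt1, chr14:56017714-56017963, plus strand: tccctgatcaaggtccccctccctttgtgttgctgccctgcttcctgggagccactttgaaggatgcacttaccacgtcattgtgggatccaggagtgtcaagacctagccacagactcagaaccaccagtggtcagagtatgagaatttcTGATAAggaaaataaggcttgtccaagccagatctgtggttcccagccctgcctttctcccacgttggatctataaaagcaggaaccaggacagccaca
Mcpt8, chr14:56085198-56085447, minus strand: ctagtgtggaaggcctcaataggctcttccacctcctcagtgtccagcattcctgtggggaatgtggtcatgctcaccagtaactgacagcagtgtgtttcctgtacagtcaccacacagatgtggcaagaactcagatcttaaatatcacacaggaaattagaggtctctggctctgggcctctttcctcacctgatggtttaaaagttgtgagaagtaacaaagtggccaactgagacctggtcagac
Cpa3, chr3:20242182-20242431, minus strand: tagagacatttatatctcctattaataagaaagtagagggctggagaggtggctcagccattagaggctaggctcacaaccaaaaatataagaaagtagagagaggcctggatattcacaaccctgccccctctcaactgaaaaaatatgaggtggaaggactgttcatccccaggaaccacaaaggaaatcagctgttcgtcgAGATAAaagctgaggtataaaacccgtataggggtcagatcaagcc
The Mcpt1 window holds 1 match, starting 99 bases before the start, the Cpa3 window 1, starting 46 bases before it, and the Mcpt8 window 0. Of the 7 members with such a sequence, 5 hold a match. Counted by window it is 5 of 8 for the members, as Srgn has more than 1 window and no match, and 26.5% of all 32851. The other 3 with a match are Fcer1a, Cma1 and Ms4a2. No match overlaps another in these windows, and a match is a description of letters and no evidence of binding. Tpsb2 and Tpsab1 had no entry.

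Gata2 itself, a regulator of HSCs, mast cells and basophils, was read at 6179, 6291 and 6630, with log2 differences from WT of 0.10 and -0.11. Gata1, which acts in mast cells, erythroid cells and megakaryocytes, was read at 513, 607 and 693 (0.32 and 0.22). Mitf, a mast cell regulator, was read at 70.7, 30.4 and 76.9, lowest on AtmsKO. Its log2 difference from WT was -1.14 ± 0.21 on AtmsKO and -0.09 on the array labelled Atmp38dKO. All 11 transcription factors listed were well above background on every array, and Mitf was the 1 that passed 2-fold. It was lower on AtmsKO than on WT (3.98% of all genes). On the third array it was higher than on AtmsKO (3.7%). Mitf and Mcpt1 were low on different arrays, with 1 array per genotype, and a relation between them was not tested.

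The other lists were written with earlier results in view and are described by counts. Of the 8 other mast cell proteases on the array, 5 were considered in each comparison. In each, 1 was at least 2-fold higher, beside 3.81%, 3.95% and 3.7% of all genes. It was Mcpt9 on AtmsKO against WT, and the same gene, Prss34, on the array labelled Atmp38dKO against both. None was lower (3.98%, 4.41% and 3.62% of all genes). Over the 5 considered, median log2 differences were 0.31, 0.34 and -0.01 in the order of comparisons above.

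Of 19 mast cell and basophil receptors, 17 were well above background on AtmsKO or WT, and of these 4 were higher on AtmsKO and 0 lower, beside 3.81% and 3.98% of all genes. Kit, the receptor of stem cell factor by which the LSK cells were sorted, was read at 2652, 2773 and 3248. Il3ra, the IL-3 receptor α chain, was read at 202, 212 and 210, and Il1rl1, the IL-33 receptor, at 30.7, 18.1 and 21.8. The log2 differences of Il1rl1 from WT were -0.68 and -0.71, under 2-fold. The 4 that were higher on AtmsKO are named here after their values were seen. Cd200r3, an activating receptor of basophils and mast cells, was read at 1.25, 131 and 5.13 and was well above background only on AtmsKO, at least 25.9-fold above WT and at least 31.3-fold above the array labelled Atmp38dKO. Siglecf, also an eosinophil marker, was read at 19.9, 48.9 and 18.4, and Csf2rb2, an IL-3 receptor β chain, at 14.3, 27.9 and 32.1. Itga2, the CD49b chain, was read at 2.50, 10.9 and 10.1, with the WT value not well above background. WT values of Csf2rb2 and Itga2 lay below 16.1, the 99th percentile of that array's negative controls after subtraction.

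On the array labelled Atmp38dKO, 1 of 16 receptors considered was higher than on WT (3.95% of all genes), Lilrb4a, an inhibitory receptor of myeloid cells, named on the same terms. It was read at 15.8, 11.2 and 42.5 (log2 1.21 ± 0.23 from WT and 1.63 ± 0.29 from AtmsKO). On WT it lay just below 16.1, the 99th percentile of that array's negative controls after subtraction. Against AtmsKO, Cd200r3 and Siglecf were lower (3.62% of all genes). Of the genes named in this list and among the proteases, Cd200r3 and Siglecf were at least 2-fold higher on AtmsKO than on both other arrays. Prss34 and Lilrb4a were so on the array labelled Atmp38dKO. Against WT only, Mcpt9, Csf2rb2 and Itga2 passed 2-fold on AtmsKO. Mcpt8 did so on the array labelled Atmp38dKO, but not with normexp.

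The 19 genes of IgE receptor signalling reported here were all well above background on every array. None of them reached 2-fold in any comparison, beside 3.98%, 4.41% and 3.62% of all genes lower and 3.81%, 3.95% and 3.7% higher. Their median log2 differences were -0.04, -0.07 and 0.11. Vav1, a signalling protein of hematopoietic cells, was read at 750.3, 626 and 1094, and Plcg2, a phospholipase C, at 562, 518 and 698. Vav1 was highest on the array labelled Atmp38dKO, by 0.33 ± 0.20 from WT and 0.51 ± 0.20 from AtmsKO on the log2 scale, and Plcg2 differed by 0.10 and 0.14, within the software error. Of 17 genes of mediators and their synthesis, 13 were considered on AtmsKO against WT and 14 in each of the other comparisons. Against WT, 0 passed 2-fold (3.98% and 4.41% of all genes lower, 3.81% and 3.95% higher). Against AtmsKO, 2 of 14 were lower on the array labelled Atmp38dKO (3.62% of all genes) and 0 higher (3.7%). The lower ones, named after their values were seen, were Ptgs2, the inducible cyclooxygenase, and Ext1, which builds heparan sulfate chains. Hdc, which makes histamine, was read at 25.8, 37.3 and 34.1. Hpgds, the hematopoietic prostaglandin D synthase, was not well above background, at 3.58, 2.51 and 3.81.

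**Figure D5:**
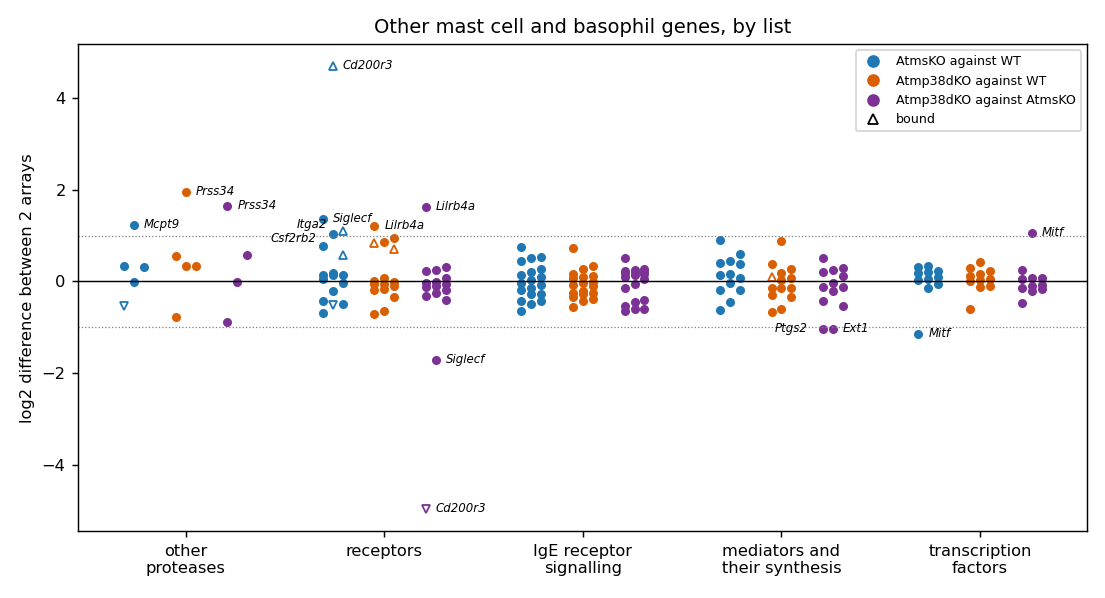
Log2 difference between arrays for the genes of 5 other mast cell and basophil lists; filled circles are measured on both arrays, open triangles are bounds, dotted lines mark 2-fold and genes past it are named. Cd200r3 at 4.70 and -4.97 lies farthest from 0, Prss34 is at 1.95 and 1.64, and the IgE receptor signalling genes stay inside the dotted lines.

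Markers of other cell types are given as the sum over a list of each gene's signal divided by the array's 75th percentile. Eosinophil markers, 6, 7 and 8 of 9 well above background, summed to 1.53, 2.18 and 2.04. Ear2 was not well above background on any array and Epx only on the array labelled Atmp38dKO. Neutrophil and monocyte progenitor markers, all 14 well above background, summed to 66.8, 71.4 and 70.1. Erythroid markers summed to 23.8, 23.6 and 25.5 (10, 11 and 11 of 11 above background), a sum made up mostly of Car2, which was read at 1879, 1599 and 1970.5. Of these 11, Hbb-b2, Hbb-bt and Alas2 were at least 2-fold higher on AtmsKO than on WT (3.81% of all genes). The same genes were so on the array labelled Atmp38dKO (3.95%), and both comparisons use the same WT array. Car1 was at least 2-fold lower on AtmsKO than on WT (3.98%). WT values of Hbb-b2 and Alas2 lay below 16.1, the 99th percentile of that array's negative controls after subtraction. The list's median log2 differences from WT were 0.55 and 0.49. Megakaryocyte markers summed to 21.0, 37.4 and 25.3 (all 10). Pf4, the largest part of that sum, was read at 1020, 2366 and 1536. Among the 10, Pf4 and Vwf were at least 2-fold higher on AtmsKO than on WT (3.81% of all genes) and 0 lower (3.98%). Gp5 was read at 82.3, 113 and 32.9. On the array labelled Atmp38dKO it was at least 2-fold lower than on WT and AtmsKO (4.41% and 3.62%), and 0 were higher (3.95% and 3.7%). Lymphoid markers summed to 8.04, 7.93 and 9.33 (10, 10 and 12 of 13). LT-HSC markers summed to 89.3, 86.9 and 77.3, the lowest on the array labelled Atmp38dKO. Fgd5 and Hoxb5 were at least 2-fold below WT there (4.41% of all genes). The part of any other cell type in the values of Mcpt1, Mcpt8, Cpa3 or Prss34 was not tested.

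The 5 genes nearest to Mcpt1 in pattern, among 25753, were AK040820, Rmdn2, Rfx8, 1700092M07Rik and Rufy4, by the largest gap between scaled log2 values centred on their means over the 3 arrays. Their gaps ran from 0.73 to 0.99 on the log2 scale, and 0 genes lay within 0.25. Rmdn2 was read at 36.5, 62.8 and 7.90, and Rufy4 at 35.6, 39.2 and 7.13, both lowest on the array labelled Atmp38dKO. None of the 5 is on a list used here.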

How the data were processed

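Expression was measured on 3 one-colour Agilent arrays, 1 per genotype, with groups taken from the sample titles. The authors' contractor scanned the arrays and extracted intensity values with Agilent Feature Extraction 11.5.1.1, which subtracts background and detrends each array. The deposited processed intensity is not normalized between arrays. The authors also deposited log2 values, which equaled log2 of the processed intensity minus the array's 75th percentile within 0.02 for 100.0%, 100.0% and 99.8% of probes, with no filter on background. Per the file headers, probes were placed on mm9.

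Control spots and outlier spots (57, 75 and 83) were left out. Spots of a probe were averaged, and a probe was well above background if over 50% of its spots were (73.3%, 68.9% and 77.7% of probes; lowest such signal 5.33, 6.12 and 4.97). No spot was saturated. Names came from RefSeq where an accession matched (32994 probes, 9 of the 12 member probes) and otherwise from the file. The brightest probe stood for a gene. Scaling to a percentile leaves relative levels only, and precision is limited by there being 3 arrays. The software error covers 1 spot and no biological spread. Probes printed at least 5 times had a median SD of 0.05 (log2) at signals of 100 or more and of 0.49 to 0.65 below 10.

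The members and all lists were chosen with earlier results of these data known. Named genes were every member, the genes past 2-fold on a measured difference among the other proteases and IgE receptor signalling (the 2 brightest where a list had none), 8 fixed regulators, receptors and enzymes, and the 5 genes nearest to Mcpt1. One gene of the signalling list is not reported here and was left out of its counts and medians. Others were named after their values were seen, as stated. Python 3.11.15, numpy 2.4.6, pandas 2.3.3, matplotlib 3.10.9 and R 4.3.3 with limma 3.58.1 (normexp, offset 50) were used, and the calling code was tested on simulated data.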

Additional observations from a re-analysis of the deposited data

How the results depend on the processing

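No paired analysis was possible because there was 1 array per genotype, so no replicate could be left out either. Of 54 counts of members recomputed under the alternatives, 42 stayed within 1.5 times and none reversed. Of 133 differences of single members, 120 kept their direction. Not all of these were free to move. Taking the mean of a gene's probes, or its dimmest one, could not change a member with 1 probe, such as Mcpt1. The authors' values and the setting without a floor are nearly the same values (-5.32 and -5.33 for Mcpt1 against WT). Mcpt1 counted as lower on the array labelled Atmp38dKO under every alternative except the one that required a signal well above background on both arrays, where the counts were 0 lower and 0 higher against WT and 0 lower against AtmsKO, by construction. Its log2 difference from WT ran from -5.33 without a floor to -1.33 with normexp, which adds 50 to each signal. With normexp, 0 members were higher than on WT. Without a floor, and equally in the authors' log2 values, 1 member was higher on AtmsKO than on WT (Ms4a2, not well above background), the array labelled Atmp38dKO had 2 higher than WT (Mcpt8 and Ms4a2) and 1 higher than AtmsKO (Mcpt8). With arrays centred on the median probe, and with quantile normalization, 2 members were lower than on WT (Mcpt1 and Cpa3).

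Over all genes, the main counts of 1093 to 1350 per comparison and direction became 67 to 134 with normexp, 1975 to 3191 without a floor, 1985 to 3212 in the authors' values and 710 to 915 with both arrays above background.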
